A study of Homo sapiens with 30 samples.

Results

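The libraries described here are those of U251 glioblastoma cells kept with interferon-γ (IFN-γ) for 28 days without interruption (D28), set against U251 cells that received none (Untreated). They were taken by their labels and number 6, 3 in each group, of 15 U251 libraries and 30 in the study. U251 (U251-MG) is an established human glioma line, grown as wild type cells in DMEM with fetal bovine serum. The labels give a dose of 1 µg/mL, which another label field and the methods of the study state differently. The other U251 groups, 3 libraries each, had IFN-γ for 3 days (D3), for 14 days (D14), or for 14 days followed by 14 days without it (D28WO), and enter only as comparators of D28. All groups share the line and the medium. The methods describe cultures split at day 14 into D28 and D28WO, so these groups can share parent cultures. They were fitted as unpaired. The Untreated cells were collected on day 3 according to the labels (day 0 in the methods), and no untreated culture of day 28 was analysed here, so 28 days of IFN-γ and 28 days in culture cannot be told apart. The methods name the lines as commonly misidentified and state no re-authentication after receipt. The labels number the 3 libraries of a group as biological replicates, which the methods define in general as cultures started and treated apart, so p-values measure the spread between such cultures.

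The receptor of IFN-γ, IFNGR1 with IFNGR2, carries the kinases JAK1 and JAK2, through which the signal reaches gamma-activated sites (GAS) in promoters such as that of the transcription factor IRF1. IRF1, and a complex that holds STAT2 and IRF9, bind interferon-stimulated response elements (ISRE), and IRF1 also takes part in switching on CIITA, the coactivator through which the MHC class II genes are transcribed. In tumour cells of glial origin the pathway is known for antigen presentation and chemokines, and also for inhibitory ligands such as PD-L1 and for the tryptophan-degrading enzyme IDO1.

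Levels are given as TPM, a measure of transcripts scaled by their length and by the library, so that they can be compared between genes, and every library sums to the same total. The depth of sequencing cannot be read from such values, and for a gene listed at 0 no lowest detectable level can be given. Differences are on the log2(TPM + 1) scale, which understates changes of low genes, and were tested with limma over the 23659 genes, of 61471 listed, that averaged 0.5 TPM or more in the 6 libraries. A gene rose or fell when its Benjamini-Hochberg adjusted p was under 0.05 and its log2 difference was over 1 in size. Since these are bulk samples, fewer cells expressing a gene and less RNA of it per cell cannot be told apart.

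Before any comparison, several features of the libraries were recorded. Libraries of the same group correlated at r between 0.964 and 0.975 across genes. Genes above 0 TPM numbered 24450 to 27187 in Untreated and 28955 to 30246 at D28, and the summed level of 405 olfactory receptor genes, which a glioma line is not known to use, was 27.8 to 48.3 TPM in Untreated and 49.5 to 70.5 TPM at D28 (exact permutation test, two-sided, p = 0.1, the smallest that 3 libraries against 3 can give). A second set, of 174 keratin-associated protein, taste receptor and beta-defensin genes, summed to 9.24 to 19.5 TPM in Untreated and 34.3 to 38.9 TPM at D28 (exact permutation test, two-sided, p = 0.1), and 5 of its 11 tested genes rose (3 with quantile normalization), against 1 of 14 tested olfactory receptor genes and 12.3% of all genes tested. The median difference of the olfactory receptor genes was 0.38 on the log2 scale and -0.17 with quantile normalization. The part of these differences in the counts of genes that rose was not tested. Several IFN-γ targets were lower in the libraries labelled D14, from cells labelled as still with IFN-γ, than in those labelled D28WO, from cells labelled as 14 days without it, while other genes went the other way. CIITA was at 8.1, 7.48 and 6.85 TPM in the libraries labelled D14 against 109, 101 and 95.9 TPM in those labelled D28WO, GBP1 at a mean of 151 against 464 TPM, and CD74 at 71.2 against 586 TPM. The summed level of 19 chemokines, in contrast, was 683 to 733 TPM in the libraries labelled D14 and 465 to 516 TPM in those labelled D28WO, with CXCL8 at a mean of 156 against 30 TPM and CCL2 at 57.1 against 9.68 TPM. Comparisons of D28 with either group rest on these labels. The comparison of D28 with Untreated uses neither group except for the shared estimate of the spread, and with only the D28 and Untreated libraries in the fit 2838 genes rose and 807 fell.

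Markers of a glioma line were present in all 6 libraries, with VIM at 1119 to 1161 TPM in Untreated and 697 to 836 TPM at D28, CD44 at 819 to 864 and 442 to 457 TPM, and SOX2 at 158 to 160 and 110 to 122 TPM. The 12 glioma markers summed to 5657 to 5788 TPM in Untreated and 3459 to 3691 TPM at D28, and 3 of them (GFAP, S100B and SOX9) fell. Most markers of leukocytes were low. TYROBP, C1QB and CD2 were listed at 0 in all 6 libraries, and PTPRC (CD45) was at 0.031, 0 and 0.181 TPM in Untreated and 0.219, 0.578 and 1.36 TPM at D28. The 12 lymphocyte markers summed to 3.54 to 5.15 TPM in Untreated and 9.41 to 11.6 TPM at D28, of which CD7 alone rose among the 5 that were tested, from 0, 0 and 0.956 to 6.08, 4.48 and 4.5 TPM. The 12 macrophage and microglia markers summed to 141 to 150 TPM in Untreated and 145 to 181 TPM at D28, of which CD68, a lysosomal protein that other cell types also make, accounted for 135, 142 and 143 TPM and 136, 138 and 168 TPM. Of these markers CD14 alone rose among the 5 tested, from 0.191, 1.26 and 0.253 to 2.4, 4.3 and 3.05 TPM, a call lost with quantile normalization.

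After 28 days, 2915 genes were higher than in Untreated (12.3% of those tested) and 808 were lower (3.42%). Rises were larger than falls. A log2 difference over 4 was reached by 89 risen and 10 fallen genes, over 5 by 39 and 1, and over 6 by 18 risen genes and no fallen gene. The median of all genes tested was 0.17 on the log2 scale. Quantile normalization, which forces the same distribution on every library, shifted that median by -0.20 and gave 1594 risen and 1532 fallen genes, so the share of risen genes among those called was 51% in place of 78.3%. Of 14537 protein-coding genes 1600 rose and 584 fell, and of 2436 long noncoding RNA genes 412 rose and 75 fell. Of 5372 tested genes without a single GENCODE match 797 rose and 123 fell. Most rises were of low genes. At mean levels from 0.5 to 2 TPM 824 genes rose and 93 fell, and from 2 to 10 TPM 1167 and 227. From 50 to 200 TPM the counts were 202 and 178. Without regard to the size of the difference, the adjusted p was under 0.05 for 6333 genes that were higher (26.8%) and 3524 that were lower (14.9%). The libraries of the groups did not overlap in 51.7% of all genes tested, so that non-overlap of a single gene is common here. Leaving out 1 library at a time gave 2571 to 3025 risen and 771 to 874 fallen genes.

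**Figure D1:**
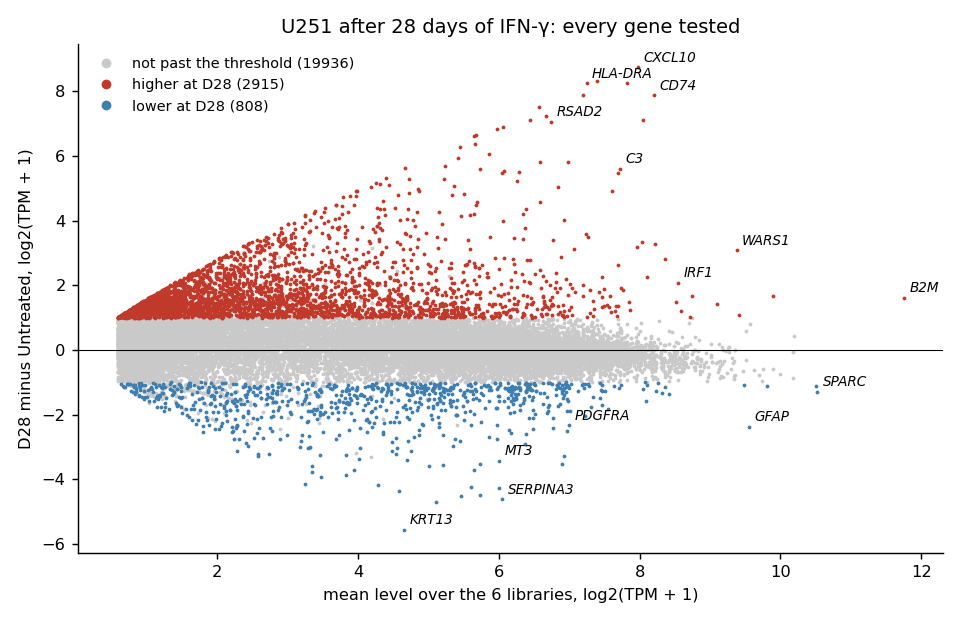
Every gene tested, with the mean level over the 6 libraries in log2(TPM + 1) on the horizontal axis and the difference D28 minus Untreated on the vertical axis. Red points are the 2915 genes that rose, blue points the 808 that fell and grey points the rest, and the rises extend to 8.75 (CXCL10) while the falls end at -5.55 (KRT13).

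The 15 largest rises among named genes with at least 5 TPM at D28 were all of genes at a mean of 2.81 TPM or less in Untreated. They were 3 chemokines (CXCL10, CXCL11 and CXCL9), 7 genes of the MHC class II pathway (HLA-DRA, CD74, HLA-DRB1, HLA-DPB1, HLA-DPA1, HLA-DOA and HLA-DQB1), RSAD2 and its neighbour CMPK2, UBD, and the copies LGALS17A and GBP1P1. CXCL10, a ligand of the T cell receptor CXCR3, was at 0, 0 and 0.608 TPM in the Untreated libraries and at 492, 498 and 521 TPM in those of D28, a log2 difference of 8.75 ± 0.183 (SE), adjusted p = 3.9e-13 with limma and Benjamini-Hochberg adjustment. All 3 D28 libraries lay far above all 3 Untreated libraries, and the rule that chose the 15 genes requires non-overlap of each. UBD, which encodes the ubiquitin-like modifier FAT10, went from 0, 0.678 and 0 to 87.4, 103 and 105 TPM, a log2 difference of 6.39 ± 0.249 (SE), adjusted p = 2e-10 (limma, Benjamini-Hochberg). LGALS17A, a galectin pseudogene (8.31), and GBP1P1, a copy of GBP1 (7.11), can share reads with their parent genes, so their levels are uncertain.

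**Figure D2:**
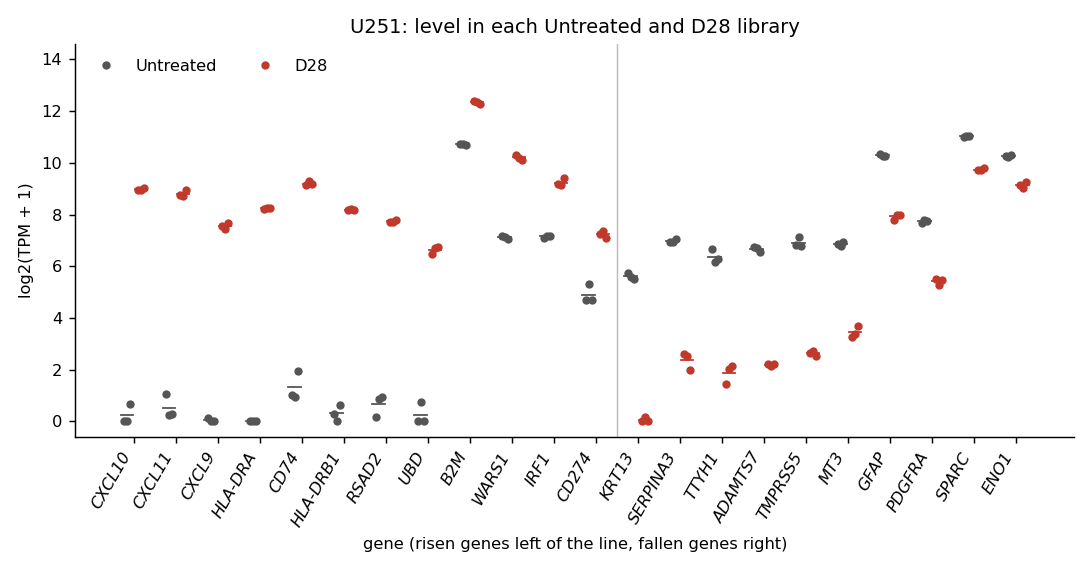
Level of 22 genes in each library, with gene names on the horizontal axis and log2(TPM + 1) on the vertical axis. Grey points are the 3 Untreated libraries and red points the 3 D28 libraries, short lines are means, and for each of the 12 risen and 10 fallen genes drawn the groups do not overlap. The groups also did not overlap in 51.7% of all genes tested, and some of the genes drawn were chosen by a rule that requires it.

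Of the 6 genes of core IFN-γ signalling, 3 rose and none fell, with a list median of 0.95 against 0.17 over all genes. JAK2, the kinase on IFNGR2, went from a mean of 9.93 to 56.6 TPM (2.46 ± 0.191 (SE), adjusted p = 2.3e-07 with limma), while the receptor chains and JAK1 did not pass the threshold, with log2 differences of -0.01 for IFNGR1, -0.47 for IFNGR2 and -0.28 for JAK1. IRF1 (chromosome 5, 132440440 to 132508719, minus strand, in GENCODE) was at 137, 142 and 145 TPM in Untreated and 577, 559 and 674 TPM at D28, a log2 difference of 2.08 ± 0.109 (SE), adjusted p = 4e-09 with limma and Benjamini-Hochberg adjustment.

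In the list of STAT and IRF family factors and their partners, which includes IRF1, 7 of 15 tested rose and none fell, with a median of 0.64. BATF2, a basic leucine zipper partner of IRF1, went from a mean of 1.81 to 76.6 TPM and ETV7, an ETS repressor induced by interferons, from 3.36 to 96.9 TPM, log2 differences of 4.79 and 4.49. STAT2 (1.51) and IRF9 (1.56), which belong to the ISRE-binding complex, also rose. Of 14 feedback regulators 2 rose and 1 fell (2 with quantile normalization), where 12.3% of all genes tested rose and 3.42% fell. The list median was 0.08 against 0.17 over all genes, and -0.05 under quantile normalization. By the adjusted p alone 6 of the 14 were higher and 5 lower. SOCS1, which blocks JAK kinases, was at 2.79, 2.84 and 2.84 TPM in Untreated and 41.3, 46.1 and 49.9 TPM at D28 (3.61 ± 0.141 (SE), adjusted p = 2e-10 with limma). USP18, which binds IFNAR2 and damps type I interferon signalling, went from 24.3 to 95.4 TPM (1.93), and SOCS5 fell from 70.1 to 29.6 TPM (-1.22).

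The promoters of a few of these genes are printed because they carry the elements through which the pathway is known to act. They come from RefSeq windows (GRCh38.p14) of 250 bases before to 50 bases after the start of a gene, of which 27305 were searched on both strands for GAS (TTCNNNGAA), ISRE (GAAANNGAAA) and the Y box of MHC class II promoters (GATTGG). Each line gives up to 30 bases on either side of the element on the gene's own strand, 5′ to 3′, with the element in capitals. The element starts 124 bases before the start of IRF1 (chr5:132490859-132490927, minus strand), 91 before CCL8 (chr17:34319314-34319382, plus strand), 221 before CXCL10 (chr4:76023679-76023747, minus strand), 171 before CXCL9 (chr4:76007641-76007710, minus strand), 127 before GBP1 (chr1:89065296-89065365, minus strand), 58 before TAP2 (chr6:32838758-32838827, minus strand) and 138 before B2M (chr15:44711349-44711418, plus strand). In the first 2 lines the capitals mark a GAS and in the others an ISRE, which in GBP1 lies on the other strand. A second ISRE match overlaps that of B2M. The RefSeq start of IRF1 lies inside the longer span that GENCODE gives the gene.
IRF1: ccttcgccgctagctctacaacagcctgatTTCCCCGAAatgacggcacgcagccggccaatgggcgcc
CCL8: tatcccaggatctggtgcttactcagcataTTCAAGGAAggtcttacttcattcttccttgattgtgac
CXCL10: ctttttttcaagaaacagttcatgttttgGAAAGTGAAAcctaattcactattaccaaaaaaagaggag
CXCL9: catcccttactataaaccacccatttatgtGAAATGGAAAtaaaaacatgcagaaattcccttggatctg
GBP1: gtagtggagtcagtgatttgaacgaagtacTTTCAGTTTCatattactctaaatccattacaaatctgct
TAP2: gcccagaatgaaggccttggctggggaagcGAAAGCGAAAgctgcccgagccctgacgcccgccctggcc
B2M: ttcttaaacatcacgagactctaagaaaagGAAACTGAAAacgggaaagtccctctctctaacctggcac

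An ISRE stood in 3.65% of all 27305 windows, in 3% of the 13575 windows of tested genes, in 7.04% of the 1491 windows of genes that rose and in 2.45% of the 490 windows of genes that fell. The shares for a GAS were 7.88%, 6.6%, 9.52% and 6.53%. Windows were found for 13575 of the 23659 genes tested. Of the type I interferon-stimulated genes 22 of 32 windows held an ISRE, and of the MHC class I pathway 6 of 13. In the MHC class II pathway none of 15 windows held an ISRE, and 9 held the Y box, which stood in 15.7% of all windows and 18.9% of those of tested genes. The Y box was not particular to class II genes, since 15 of 22 windows of the unfolded protein and ATF4 list and 12 of 23 of the cholesterol and fatty acid list held it. A match is a description of letters in this window, and the binding of a factor was not measured.

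Most chemokines were higher at D28 than in Untreated and, in the direct contrasts, than at D3 and in D28WO, while 6 were higher than in the libraries labelled D14. Of 15 tested, 12 rose against Untreated and none fell, with a median of 2.29. CXCL9, the other CXCR3 ligand typical of IFN-γ, went from 0.0829, 0 and 0 TPM to 186, 174 and 203 TPM (7.52 ± 0.22 (SE), adjusted p = 9.6e-12 with limma and Benjamini-Hochberg adjustment), and CXCL11 from 1.09, 0.189 and 0.227 to 432, 418 and 493 TPM (8.27). The 3 genes lie next to each other on chromosome 4, and in all 3 the Untreated libraries were at or below 1.09 TPM. CCL8, a ligand of monocyte chemokine receptors, was listed at 0 in all Untreated libraries and at 45.9, 46.8 and 54 TPM at D28 (5.64 ± 0.371 (SE), adjusted p = 4.2e-08 with limma, a difference whose size is set by the pseudocount of 1). CCL5, which draws T cells and monocytes, went from 0.459 to 23.2 TPM (4.06), and CCL2, the main monocyte chemokine, from 23.7, 17.8 and 21.4 to 68, 75.2 and 76 TPM (1.76 ± 0.179 (SE), adjusted p = 3.1e-06 with limma). The neutrophil chemokines CXCL2 (22.5 to 125 TPM), CXCL3 (11.3 to 82.4 TPM) and CXCL8 (31.6 to 139 TPM) also rose, by log2 differences of 2.42, 2.75 and 2.10.

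Compared directly, 10 of the 15 chemokines were higher at D28 than at D3, where 703 genes of all tested were higher (2.97%) and 81 lower (0.342%), or 461 and 204 with quantile normalization. CCL8 was at 2.83, 12.5 and 8.5 TPM at D3 and CXCL10 at 178, 287 and 252 TPM, and the differences D28 minus D3 were 2.66 ± 0.371 (SE), adjusted p = 0.00062 and 1.10 ± 0.183 (SE), adjusted p = 0.00175 (limma, Benjamini-Hochberg). CXCL2 and CXCL3 were 1.94 and 1.36 higher at D28 than at D3 on the log2 scale. Against D28WO 2010 of all genes were higher at D28 (8.5%) and 1.06% were lower, or 980 and 667 genes with quantile normalization, and 11 of the 15 chemokines were higher at D28. CXCL11 was at 28.9, 36.2 and 29.4 TPM in D28WO, a difference of 3.79 ± 0.209 (SE), adjusted p = 5.7e-08 with limma, and CCL8 at 0.393, 0 and 0 TPM, a difference of 5.48 ± 0.371 (SE), adjusted p = 2.7e-07 with limma. At D28 both were above every library of the other 4 groups. Against the libraries labelled D14 1047 of all genes tested were higher at D28 (4.43%) and 348 lower (1.47%), or 716 and 586 with quantile normalization. Of the 15 chemokines 6 were higher at D28 (CCL5, CCL8, CX3CL1, CXCL9, CXCL10 and CXCL11) and CXCL14 was lower (-1.13), with a median of 0.45, and CXCL2 and CXCL8 did not pass the threshold, with differences of 0.10 and -0.17. CX3CL1 and CXCL12 rose against Untreated and did not pass the threshold against D3 or D28WO.

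The MHC class II pathway had the largest median of the lists described, 5.05, with 15 of 19 genes risen and none fallen. CIITA was at 2.65, 1.76 and 1.21 TPM in Untreated and 126, 126 and 139 TPM at D28, a log2 difference of 5.54 ± 0.14 (SE), adjusted p = 2.1e-12 with limma and Benjamini-Hochberg adjustment. HLA-DRA, the invariant α chain of HLA-DR, was listed at 0 in every Untreated library and at 296, 304 and 308 TPM at D28. CD74, the invariant chain that guards the peptide groove, went from 1.04, 0.942 and 2.88 to 561, 631 and 575 TPM (7.89 ± 0.208 (SE), adjusted p = 3.1e-12 with limma). All D28 libraries lay above all Untreated libraries in the 3 genes, and CD74 reached a level near that of HLA-E. HLA-DMB, a peptide editor, went from 0.716 to 113 TPM (6.07), and CTSS, the protease that trims CD74, from 24 to 282 TPM (3.50). HLA-DOA and HLA-DOB, whose heterodimer inhibits the editor, rose by 6.84 and 4.28. HLA class II genes are near-identical paralogs, and how the authors divided reads between such copies, for example HLA-DRB1 and HLA-DRB5, is not given in the sources used here.

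Of the 19 class II genes, 2 passed the threshold between D28 and D3, both higher at D28. HLA-DQA1 was at 7.42, 5.69 and 8.89 TPM at D3 and 33.2, 38.6 and 30.4 TPM at D28 (2.08 ± 0.258 (SE), adjusted p = 0.00026 with limma), and HLA-DOB at 12.7 and 26.6 TPM (1.01 ± 0.219 (SE), adjusted p = 0.00853 with limma). Against D28WO 7 of the 19 were higher at D28, among them HLA-DQA1 at 1.57, 2.15 and 0.544 TPM in D28WO (3.91 ± 0.258 (SE), adjusted p = 2.1e-07 with limma). Against the libraries labelled D14 15 of the 19 were higher at D28 and none was lower. HLA-DRA was at 44.8, 53.7 and 50.4 TPM in these libraries, between Untreated and every other treated group. The windows of HLA-DRB1 (chr6:32589860-32589925, minus strand) and HLA-DQB1 (chr6:32666711-32666776, minus strand), shown for the Y box that binds NF-Y in class II promoters and printed after their levels were known, read as follows.
HLA-DRB1: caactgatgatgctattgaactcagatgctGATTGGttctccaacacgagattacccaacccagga
HLA-DQB1: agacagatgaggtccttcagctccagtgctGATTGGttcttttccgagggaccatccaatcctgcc

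The class I pathway was already abundant in Untreated and rose less steeply. Of 17 genes 11 rose and none fell, with a median of 1.43. B2M, the light chain of class I molecules, was at 1720, 1721 and 1646 TPM in Untreated and 5443, 5277 and 4937 TPM at D28, a log2 difference of 1.62 ± 0.0458 (SE), adjusted p = 6.8e-12 with limma and Benjamini-Hochberg adjustment. It was the most abundant of the risen genes. HLA-B went from 426, 447 and 488 to 1543, 1459 and 1364 TPM, and HLA-C, HLA-F and HLA-E were also among the 10 risen genes of highest level, with log2 differences of 1.43, 1.67 and 1.04. HLA-E lay close to the limit, at 0.97 with median-ratio size factors, and HLA-C and HLA-F kept their call under every alternative run. The peptide pump genes TAP1 (94.1 to 453 TPM) and TAP2 (49.4 to 206 TPM) rose by 2.26 and 2.04, and NLRC5, the class I counterpart of CIITA, went from 62.2, 56.5 and 59.1 to 254, 336 and 285 TPM (2.27). Of the 5 inducible proteasome genes PSMB9, PSMB10 and PSME2 rose, by 1.66, 1.38 and 1.48, while none of the 14 tested subunits of the constitutive proteasome passed the threshold (median 0.10). No gene of these 3 lists passed the threshold between D28 and D3 or between D28 and D28WO, while HLA-G, TAP1, TAPBPL and PSMB10 were higher at D28 than in the libraries labelled D14 (1.07, 1.15, 1.53 and 1.01).

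Guanylate-binding proteins, GTPases that attack vacuoles of intracellular pathogens, rose in 7 of 8 genes, with a median of 2.81. GBP1 went from 49.9, 44.4 and 45 to 456, 473 and 501 TPM (3.33 ± 0.0679 (SE), adjusted p = 3.4e-13 with limma), GBP5 from 54.5 to 541 TPM (3.29) and GBP4 from 6.87 to 159 TPM (4.35). All 7 were higher at D28 than in the libraries labelled D14, and none passed the threshold against D3 or D28WO. WARS1, the cytoplasmic tryptophanyl-tRNA synthetase, was the third most abundant of the risen genes, at 142, 140 and 133 TPM in Untreated and 1281, 1172 and 1118 TPM at D28 (3.09 ± 0.07 (SE), adjusted p = 8.4e-13 with limma).

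Type I interferon-stimulated genes, which answer to the ISRE-binding complex, rose in 35 of 40 cases with none lower, and the median was 2.38. RSAD2 (viperin), which makes an antiviral nucleotide, went from 0.138, 0.824 and 0.94 to 208, 208 and 222 TPM (7.07 ± 0.175 (SE), adjusted p = 1.7e-12 with limma and Benjamini-Hochberg adjustment) and its neighbour CMPK2 from 0, 0.322 and 0 to 120, 126 and 146 TPM (6.90). OAS2, a sensor that makes oligoadenylate for RNase L, went from 2.4 to 152 TPM (5.52), IFI27 from 2.88 to 186 TPM (5.80) and XAF1 from 12 to 376 TPM (4.92). IFI6, an antiviral protein of the endoplasmic reticulum, was among the 10 risen genes of highest level, at 81.1, 83.4 and 77.6 TPM in Untreated and 556, 600 and 576 TPM at D28. The direct contrasts with D3 and D28WO called a single gene of the 40, RSAD2, as different between D28 and D3 (1.09) and between D28 and D28WO (1.42), and the list medians of those contrasts were 0.15 and -0.10. Against the libraries labelled D14 6 of the 40 were higher at D28 (CMPK2, IFI35, IFIT2, ISG20, OASL and RSAD2) and none lower, with a median of 0.49. The 7 genes of the interferon-related DNA damage resistance signature, which the study took from the literature, among them IFI44, IFIT1, IFIT3, ISG15, MX1 and OAS1, all rose, with a median of 2.63.

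Of 16 nucleic acid sensors 8 rose and none fell. AIM2, a receptor of cytosolic DNA, went from 0.197, 0 and 0.0995 to 25.6, 27.7 and 34.1 TPM (4.77 ± 0.323 (SE), adjusted p = 5.5e-08 with limma) and was at 2.39, 1.47 and 3.5 TPM in D28WO, below every D28 library (3.16 ± 0.323 (SE), adjusted p = 9e-06 with limma). TLR3, the endosomal receptor of double-stranded RNA, went from 7.72 to 53.8 TPM (2.66) and NOD2 from 0.692 to 13.4 TPM (3.22). In the APOBEC3 and APOL families, cytidine deaminases and apolipoprotein L proteins that restrict viruses or trypanosomes, 7 of 11 rose, with APOL3 at 13 to 148 TPM and APOL4 at 0.653 to 38.4 TPM (3.43 and 4.61). Members of both families resemble each other closely, so levels of single copies are uncertain.

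Of 23 cytokines and growth factors 13 rose and 1 fell, with a median of 1.17. IL18BP, a soluble inhibitor of IL-18, was at 5.61, 7.05 and 4.99 TPM in Untreated and 205, 234 and 228 TPM at D28 (5.03 ± 0.156 (SE), adjusted p = 1.7e-11 with limma). TNFSF13B (BAFF), a B cell survival factor, went from 1.23 to 103 TPM (5.59) and IL7, a T cell growth factor, from 1.17 to 35.6 TPM (4.11). IL15 (5.18 to 39.1 TPM, 2.73) and IL11 (36.7 to 166 TPM, 2.14) rose as well, and LIF fell from 24.8 to 8.19 TPM (-1.53). In the complement list 10 of 18 rose and 2 fell. C3, on which all complement pathways meet, was at 7.72, 7.9 and 6.62 TPM in Untreated and 367, 407 and 457 TPM at D28 (5.61 ± 0.134 (SE), adjusted p = 1.3e-12 with limma). SERPING1, the inhibitor of C1, went from 3.83 to 247 TPM (5.83) and C2 from 2.09 to 47.8 TPM (4.05). CFD fell by 1.56 on the log2 scale, and CFI, the protease that inactivates C3b, from 165 to 82 TPM, just past the limit.

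Of 17 checkpoint ligands and related inhibitory genes 7 rose and none fell, with a median of 0.57. CD274 (PD-L1) was at 24.8, 38.5 and 24.8 TPM in Untreated and 152, 165 and 137 TPM at D28, a log2 difference of 2.36 ± 0.138 (SE), adjusted p = 1.3e-08 with limma and Benjamini-Hochberg adjustment. Its lowest D28 library held more than 3 times the highest Untreated level. PDCD1LG2 (PD-L2) went from 10.8 to 67.1 TPM (2.54), LGALS9 (galectin-9) from 3.29 to 98.1 TPM (4.58) and NT5E (CD73), which makes adenosine, from 41.1 to 181 TPM (2.11). CD274 did not pass the threshold of limma between D28 and D3 (0.19 ± 0.138 (SE), adjusted p = 0.395) or D28WO (0.46 ± 0.138 (SE), adjusted p = 0.0212) and was higher than in the libraries labelled D14 (2.08), and NT5E was higher at D28 than in D28WO (1.07 ± 0.0734 (SE), adjusted p = 3e-07, limma). In tryptophan and kynurenine metabolism 6 of 13 rose, and IDO1, which opens the pathway, was at 8.12, 8.24 and 7.55 TPM in Untreated and 411, 389 and 405 TPM at D28 (5.49 ± 0.105 (SE), adjusted p = 2.4e-13 with limma). KMO, which takes kynurenine to 3-hydroxykynurenine, went from 1.17, 1.9 and 0.826 to 27.2, 17.6 and 15.9 TPM and was at 6.8, 7.41 and 6.3 TPM at D3 (1.40 ± 0.305 (SE), adjusted p = 0.00848 for D28 minus D3, limma). KYNU (15.8 to 57.5 TPM, 1.80) rose and was 1.72 higher at D28 than in D28WO.

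Of 13 ligands of natural killer cell receptors 5 rose and none fell, against 3 and 1 with quantile normalization and 3 and 0 with median-ratio size factors. MICB, a ligand of the activating receptor NKG2D, went from 11.3, 13.6 and 10 to 55.7, 57 and 53.7 TPM (2.17), beside the inhibitory ligands HLA-E and HLA-G (1.04 and 2.05). Of 16 leukocyte adhesion genes 6 rose and none fell, against 2 and 1 with quantile normalization and 5 and 1 with median-ratio size factors. ICAM1, the ligand of LFA-1, went from 7.08, 7.77 and 5.36 to 183, 174 and 194 TPM (4.59 ± 0.12 (SE), adjusted p = 2.9e-12 with limma), and VCAM1 from 57.6 to 117 TPM (1.01).

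**Figure D3:**
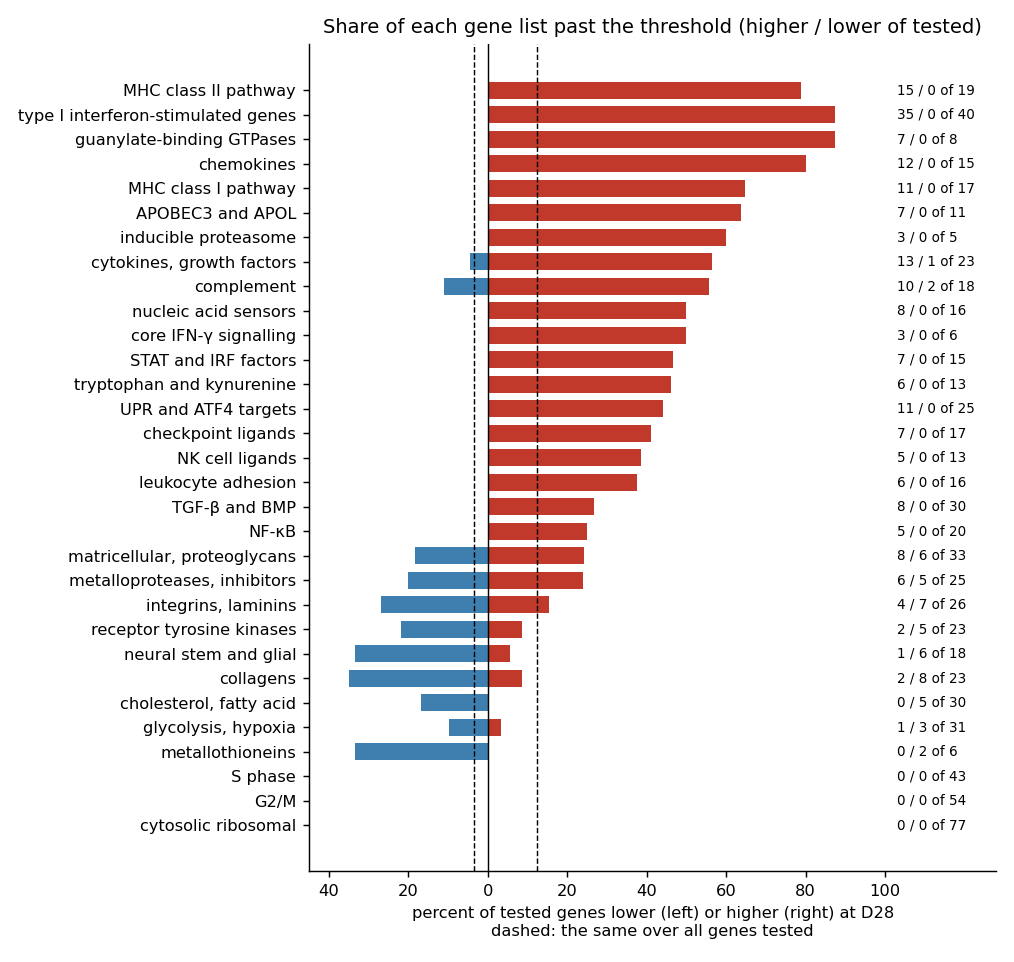
Share of each of 31 gene lists that rose (red, right) or fell (blue, left) at D28 against Untreated, in percent of the tested genes of the list, with the counts at the right edge. Dashed lines mark the shares over all genes tested, 12.3% risen and 3.42% fallen, and the interferon lists at the top reach far past them while cell cycle and ribosomal lists hold no called gene.

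Beyond interferon targets, genes of the unfolded protein response and of the stress factor ATF4 rose in 11 of 25 cases, with none lower and a median of 0.89. CHAC1, which degrades glutathione, was at 22.6, 21.1 and 17.2 TPM in Untreated and 164, 160 and 116 TPM at D28 (2.78 ± 0.119 (SE), adjusted p = 5.3e-10 with limma), with 1 D28 library lower than the other 2 and above all Untreated libraries. SESN2 went from 14.7 to 88.7 TPM (2.52), NUPR1 from 30.7 to 132 TPM (2.13) and DDIT3 (CHOP), a factor that promotes cell death under stress, from 51.3 to 162 TPM (1.64). The amino acid genes ASNS (1.32) and PSAT1 (1.41) and the cystine transporter SLC7A11 (1.05) rose with them. No gene of this list was higher at D28 than at D3 or D28WO, and DDIT4 alone was lower than in D28WO (-1.34). Against the libraries labelled D14 6 of the 25 were higher at D28 (ASNS, CHAC1, ERN1, NUPR1, PSAT1 and SESN2), with a median of 0.41. In the cystine, ferroptosis and iron list, which shares CHAC1 and SLC7A11 with the former, 4 of 20 rose and 1 fell, 2 with median-ratio size factors in place of 4. They included HMOX1, heme oxygenase, from 59.6 to 152 TPM (1.35), and SLC40A1, the iron exporter, fell from 20.4 to 6 TPM (-1.65).

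Of 24 cell death genes 6 rose and none fell, among them MLKL, the executor of necroptosis, from 13.5, 13 and 16.7 to 51, 73.2 and 68 TPM (2.07), CASP1 from 34.1 to 92.9 TPM (1.42) and TNFSF10 (TRAIL) from 47.2 to 149 TPM (1.65). Of 20 NF-κB subunits and targets 5 rose, 2 with quantile normalization, with TNFAIP3, the inhibitor A20, from 11.5 to 38.5 TPM (1.66). Of 18 p53 targets 3 rose and 1 fell, shares near the 12.3% and 3.42% over all genes, with a median of 0.05, against -0.07 with quantile normalization. The 3 were SESN2, GADD45A (1.04) and PMAIP1 (1.18), of which SESN2 is also a target of ATF4, and BTG2, an antiproliferative gene, fell from 48.7, 48.8 and 51.4 to 8.43, 10.2 and 8.74 TPM (-2.33 ± 0.145 (SE), adjusted p = 2.4e-08 with limma). CDKN1A (p21) did not pass the threshold, at 41.6, 41.7 and 39.5 TPM in Untreated and 68.4, 70.9 and 82.2 TPM at D28 (0.83 ± 0.089 (SE), adjusted p = 5.3e-06 with limma).

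In the AP-1, EGR and ERK-responsive list 5 of 23 rose and 2 fell against Untreated, where 12.3% of all genes rose and 3.42% fell. By the adjusted p alone 9 were higher and 12 lower, with a median of -0.23. The ERK phosphatase DUSP4 went from 6.86 to 41 TPM (2.42), the ETS factor ETV1 from 15, 17.3 and 18.1 to 86.5, 90.6 and 81.9 TPM (2.30) and SPRY1, a feedback inhibitor of receptor signalling, from 10.9 to 42.4 TPM (1.87), while EGR2 and EGR3 fell (log2 differences of -1.40 and -1.88). Against D3, 6 of the 23 were higher at D28 and none lower (EGR1, EGR2, EGR3, FOS, FOSB and SPRY1), where 2.97% of all genes were higher. FOS was at 58, 96 and 91.1 TPM at D3 and 231, 259 and 288 TPM at D28 (1.68 ± 0.15 (SE), adjusted p = 2.9e-05 with limma) and FOSB at 12.4 and 89 TPM (2.75). Against D28WO 8 of the 23 were higher at D28 and none lower, where 8.5% of all genes were higher. Among the 8 were ETV1 at 10.7, 11.5 and 7.06 TPM in D28WO (3.04 ± 0.17 (SE), adjusted p = 6.2e-08 with limma) and DUSP6 (2.22). Against the libraries labelled D14 1 of the 23 was higher and 2 were lower.

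Among the TGF-β and BMP genes 8 of 30 rose and none fell, against 5 and 1 with quantile normalization. Secreted antagonists led the list. FST (follistatin), which binds activin, was at 1.93, 2.95 and 4.43 TPM in Untreated and 144, 147 and 151 TPM at D28 (5.22 ± 0.172 (SE), adjusted p = 3.4e-11 with limma), and NOG (noggin), which binds BMPs, at 1.01, 2.08 and 0.167 and 18.3, 22.7 and 21.5 TPM (3.49 ± 0.295 (SE), adjusted p = 5.1e-07 with limma). NOG stood at 0.14, 0.425 and 0.318 TPM in D28WO, a difference of 4.08 ± 0.295 (SE), adjusted p = 4.4e-07 with limma, and FST at 28.3, 34.8 and 31.5 TPM, a difference of 2.19 ± 0.172 (SE), adjusted p = 9e-07 with limma. The inhibitory SMAD6 and SMAD7 rose by 1.37 and 1.20, and INHBA, a subunit of activin, by 1.10.

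The largest falls included genes of glial and neural cells and secreted proteases and inhibitors. KRT13, a keratin, was at 52.3, 47.6 and 44.4 TPM in Untreated and 0, 0.133 and 0 TPM at D28, a log2 difference of -5.55 ± 0.317 (SE), adjusted p = 1e-08 with limma and Benjamini-Hochberg adjustment. SERPINA3, a protease inhibitor of reactive astrocytes, went from 123, 123 and 131 to 5.11, 4.72 and 2.99 TPM (-4.61 ± 0.163 (SE), adjusted p = 6.8e-11 with limma). In both genes the highest D28 library lay below the lowest Untreated library by more than 10 times. Also among the 15 largest falls were TTYH1, a membrane protein of neural stem cells and astrocytes (83.2 to 2.75 TPM, -4.50), ADAMTS7, which cleaves cartilage matrix (101 to 3.58 TPM, -4.47), TMEM61 (-4.36) and the serine protease TMPRSS5 (121 to 5.24 TPM, -4.28). Further down came ARSF, ADAMTS16, PRSS33, PADI2, the pseudogene ITGB1P1, SERPINA5, CDH5 and SCUBE3, with differences from -4.24 to -3.70. PRSS33 was listed at 0 in all D28 libraries, against 19.7, 16.7 and 14.5 TPM in Untreated. CDH5 is VE-cadherin, a marker of endothelium. Of the 6 tested endothelial markers it alone fell and ESAM alone rose (0.467 to 2.01 TPM), against 2 fallen and none risen with quantile normalization, and PECAM1 was between 0.0763 and 2.38 TPM in all 6 libraries.

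Of 18 neural stem and glial genes 6 fell and 1 rose, or 7 and 0 with quantile normalization, with a median of -0.52. GFAP, the intermediate filament of astrocytes, was at 1309, 1246 and 1219 TPM in Untreated and 222, 253 and 255 TPM at D28 (-2.37 ± 0.0912 (SE), adjusted p = 1.7e-10 with limma). The lowest Untreated library held more than 4 times the level of the highest D28 library. S100B (184 to 64.1 TPM), PTPRZ1 (177 to 55.3 TPM) and SOX9 (155 to 75.7 TPM) fell, with log2 differences of -1.51, -1.66 and -1.03, and OLIG2 reached 1.1 TPM from a level listed at 0. GFAP was at 300, 365 and 361 TPM at D3, 810, 703 and 627 TPM in the libraries labelled D14 and 574, 574 and 570 TPM in D28WO, and D28 was lower than the last of these by 1.23 on the log2 scale (-1.23 ± 0.0912 (SE), adjusted p = 5.3e-07 with limma). MT3, the brain metallothionein, fell from 116, 110 and 122 to 8.63, 9.35 and 12 TPM (-3.42 ± 0.42 (SE), adjusted p = 1.9e-05 with limma), and MT1F was the other of 6 tested metallothioneins to fall (-1.07).

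Receptor tyrosine kinases, through which glioma cells take up growth signals, fell in 5 of 23 cases and rose in 2. PDGFRA was at 201, 221 and 217 TPM in Untreated and 44.3, 37.7 and 43.9 TPM at D28 (-2.32 ± 0.0801 (SE), adjusted p = 5.8e-11 with limma), and NTRK3 at 65.2, 62.2 and 59.5 and 6.78, 9.51 and 12.5 TPM (-2.61 ± 0.184 (SE), adjusted p = 8.3e-08 with limma). ERBB3 (-1.50), ALK (-1.50) and DDR1 (289 to 137 TPM, -1.07) fell too. FGFR1 went the other way, from 39.7, 27.1 and 26.1 to 107, 92.5 and 122 TPM (1.77 ± 0.175 (SE), adjusted p = 2.3e-06 with limma), as did NTRK2 from 0.669 to 7.47 TPM (2.36), while EGFR did not pass the threshold (-0.44 ± 0.0676 (SE), adjusted p = 0.00014 with limma). In D28WO the level of PDGFRA was 102, 96.3 and 98.5 TPM and that of NTRK3 30, 25.2 and 36.4 TPM, both above D28 (-1.22 and -1.59 for D28 minus D28WO). Of the 23 receptor tyrosine kinases 5 were higher and 2 lower at D28 than in D28WO, where 8.5% and 1.06% of all genes were. Of 29 ephrin, semaphorin, slit and netrin guidance genes 6 fell and 5 rose, 3 in place of 5 with quantile normalization. EFNB3 fell from 41.9, 40.1 and 35.3 to 3.89, 3.74 and 3.13 TPM (-3.13 ± 0.14 (SE), adjusted p = 8.3e-10 with limma) and SEMA3B from 201 to 54.3 TPM (-1.88), and EPHB1 rose from 0.708 to 5.95 TPM (2.02).

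Extracellular matrix genes moved in both directions. Of 23 collagens 8 fell and 2 rose, 1 in place of 2 with quantile normalization or median-ratio size factors, with a median of -0.76, among them COL11A1 from 230, 236 and 249 to 54.4, 62.6 and 56.2 TPM (-2.03 ± 0.0879 (SE), adjusted p = 6e-10 with limma), COL21A1 (-2.13), COL9A3 (-2.06) and COL5A1 (-1.33). Of 26 integrins and laminins 7 fell and 4 rose, and the 4 became 2 with median-ratio size factors and 0 with quantile normalization. ITGB3, the partner of ITGAV in the vitronectin receptor, fell from 154, 153 and 145 to 25.4, 27.6 and 28 TPM (-2.44 ± 0.0815 (SE), adjusted p = 4e-11 with limma) and ITGA9 from 48.3 to 8.04 TPM (-2.46). SPARC, a collagen-binding glycoprotein and the most abundant of the fallen genes, went from 2070, 2123 and 2081 to 838, 840 and 887 TPM (-1.29 ± 0.106 (SE), adjusted p = 4e-07 with limma). In its list of 33 matricellular proteins and proteoglycans 6 fell and 8 rose, 5 in place of 8 with quantile normalization, and the collagen crosslinkers LOXL2, LOXL3 and LOXL4 fell (log2 differences of -1.82, -1.13 and -1.91) while LOX rose by 1.43.

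Of 25 metalloproteases and their inhibitors 6 rose and 5 fell. The interstitial collagenase MMP1 was at 0.122, 0.536 and 0.621 TPM in Untreated and 18.4, 20.2 and 22.4 TPM at D28 (3.92 ± 0.234 (SE), adjusted p = 1.6e-08 with limma) and the stromelysin MMP3, its neighbour on chromosome 11, at 1.33, 0.735 and 0.53 and 34.7, 34.5 and 41.4 TPM (4.36 ± 0.205 (SE), adjusted p = 1.4e-09 with limma). In D28WO MMP1 was at 0.174, 0 and 0.307 TPM and MMP3 at 0.148, 0.3 and 0.505 TPM, no higher than in Untreated, and D28 was higher by 4.20 ± 0.234 (SE), adjusted p = 6.2e-08 and 4.85 ± 0.205 (SE), adjusted p = 8.1e-09 with limma. ADAMTS7, ADAMTS15, MMP17, ADAM19 and MMP11 were the 5 that fell against Untreated. Of the 25 genes 6 were higher and 6 lower at D28 than in D28WO. The counts were 2 higher and 5 lower against the libraries labelled D14, and 6 higher and none lower against D3. In the mesenchymal list 4 of 28 rose (CHI3L1, CEBPB and SNAI2 among them) and 2 fell (RUNX2 and S100A4), with a median of -0.19, and the 4 became 2 with median-ratio size factors or without Untreated replicate 3. Over all genes tested 12.3% rose and 3.42% fell. By the adjusted p alone 9 of the 28 were higher and 12 lower. CHI3L1 (YKL-40) went from 34, 31.8 and 31 to 76.6, 91.4 and 99.5 TPM (1.43).

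The 10 fallen genes of highest Untreated level were SPARC, TMSB4X, GFAP, ENO1, ACTG1, ABI3BP, IGFBP5, MYO1E, PLCD3 and CAPS. TMSB4X, a binder of actin monomers, went from 2027, 2013 and 1921 to 901, 961 and 877 TPM (-1.12), and ACTG1, cytoplasmic γ-actin, from 975 to 457 TPM (-1.09). With quantile normalization the differences of TMSB4X (-0.67), ENO1 (-0.76), ACTG1 (-0.70), MYO1E (-0.96) and CAPS (-0.82) were below 1 in size. IGFBP5, a binder of insulin-like growth factors, went from 453 to 180 TPM (-1.33).

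Of 31 glycolysis and hypoxia genes 3 fell and 1 rose, and with the adjusted p as the only criterion 22 were lower and 3 higher. ENO1, the glycolytic enolase, was at 1219, 1194 and 1259 TPM in Untreated and 571, 526 and 605 TPM at D28 (-1.11 ± 0.0547 (SE), adjusted p = 2.3e-09 with limma), and PDK1, which inhibits pyruvate dehydrogenase, went from 103 to 43.7 TPM (-1.22). Carbonic anhydrase CA9 fell from 244 to 104 TPM (-1.23) and CA12 rose from 22 to 50.1 TPM (1.16). Of 30 genes of cholesterol and fatty acid synthesis 5 fell and none rose, 21 and 0 by the adjusted p alone, with a median of -0.45. SCD, the stearoyl-CoA desaturase, fell from 190, 189 and 207 to 82.7, 79.7 and 79.6 TPM (-1.26 ± 0.0541 (SE), adjusted p = 5.3e-10 with limma) and SREBF1, the factor that drives lipid synthesis, from 116 to 50.5 TPM (-1.19). None of the 30 passed the threshold as lower at D28 than at D3, D14 or D28WO, and 1 was higher than at D3 and 1 than in D28WO. By the adjusted p alone 14 were lower and 1 higher than in the libraries labelled D14, with a median of -0.35. The same counts were 2 lower and 9 higher against D3, and 4 lower and 7 higher against D28WO.

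No gene among 77 cytosolic ribosomal proteins passed the threshold, but the adjusted p alone was under 0.05 for 74 of them, all lower, with a median of -0.45. Their summed level was 33345 to 35985 TPM in Untreated and 24509 to 25154 TPM at D28 (exact permutation test, two-sided, p = 0.1, the smallest possible). The median was -0.27 with quantile normalization. Replication-dependent histone genes, most of whose transcripts end without a poly(A) tail, rose in 20 of 55 cases with none lower, 11 in place of 20 with quantile normalization. Their summed level was 520 to 572 TPM in Untreated and 1135 to 1157 TPM at D28 (exact permutation test, two-sided, p = 0.1, the smallest possible), with H2BC4 at 10.6, 11.7 and 2.62 and 49.7, 47.3 and 44.1 TPM (2.56). Histone genes are near-identical, so levels of single copies are uncertain.

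No gene of the S phase (43) or G2/M (54) lists passed the threshold against Untreated, with medians of 0.01 and 0.23 beside 0.17 over all genes. By the adjusted p alone 11 S phase genes were higher and 7 lower, and 21 G2/M genes were higher and 4 lower. The licensing list, of MCM helicase and origin genes, likewise held no called gene of 17. Against D28WO, 11 of the 43 S phase genes were higher at D28 and none lower, with a median of 0.66 against 0.15 over all genes. RRM2, a subunit of ribonucleotide reductase, was at 167, 170 and 185 TPM in Untreated, 178, 184 and 215 TPM at D28 and 48.1, 53.6 and 44.9 TPM in D28WO (1.95 ± 0.101 (SE), adjusted p = 3e-08 for D28 minus D28WO, limma). CDC45, the helicase cofactor, was at 49.7, 58.5 and 47.7 TPM at D28 and 10.8, 16.9 and 12.6 TPM in D28WO (1.89 ± 0.151 (SE), adjusted p = 1e-06 with limma). The D28 libraries thus stood above D28WO in RRM2 and CDC45, and beside Untreated in RRM2. Of the 54 G2/M genes 1 was higher and none lower at D28 than in D28WO, where 8.5% of all genes were higher. No S phase or G2/M gene passed the threshold between D28 and the libraries labelled D14. By the adjusted p alone 20 S phase and 33 G2/M genes were lower at D28 than in those libraries and none higher, with medians of -0.30 and -0.41. Of 18 genes of homologous recombination and the Fanconi pathway 2 rose against Untreated, where 12.3% of all genes rose, and 1 with quantile normalization or median-ratio size factors. Against D28WO 9 were higher at D28, where 8.5% of all genes were. BRCA2 was at 5.15, 6.09 and 4.94 TPM in Untreated and 35.1, 35.1 and 31.4 TPM at D28 (2.45 ± 0.13 (SE), adjusted p = 4.9e-09 with limma) and at 12.2, 12.3 and 10.1 TPM in D28WO (1.48 ± 0.13 (SE), adjusted p = 2.4e-06 with limma).

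**Figure D4:**
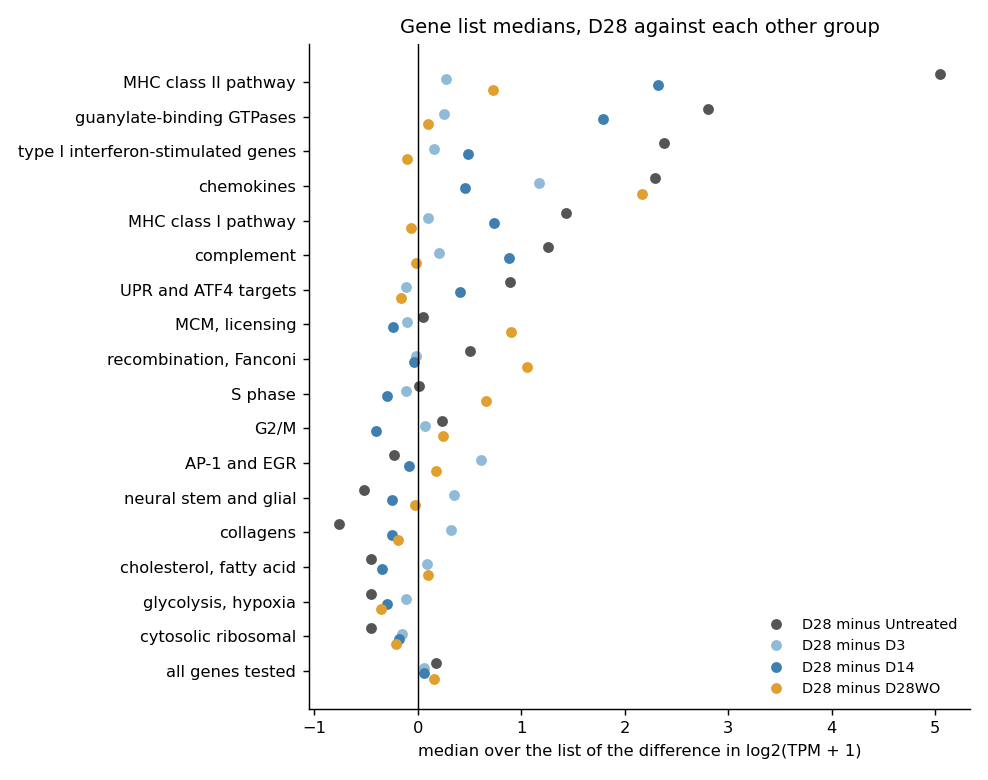
Median difference in log2(TPM + 1) of 17 gene lists and of all genes tested (lowest line) for D28 minus each of the other 4 groups, on the horizontal axis. Grey, light blue, dark blue and orange points stand for Untreated, D3, D14 and D28WO as the group subtracted, and the type I interferon list lies at 2.38 against Untreated and within 0.2 of 0 against D3 and D28WO, while chemokines lie above 1 against Untreated, D3 and D28WO.

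Taken gene by gene against D28WO, the 10 largest rises of D28 were CCL8, RPLP0P2, MMP3, MMP1, NOG, SAA2, HLA-DQA1, ANKFN1, OR2I1P and CXCL11. SAA2, an acute-phase protein, was at 21.7, 20.4 and 29.3 TPM at D28 and 0, 2.22 and 0 TPM in D28WO (4.05 ± 0.467 (SE), adjusted p = 2.5e-05 with limma). RPLP0P2, a pseudogene of a ribosomal protein, was at 79.9, 69.3 and 65.2 and 2.54, 0.861 and 0.769 TPM (4.99 ± 0.309 (SE), adjusted p = 1.3e-07 with limma), and reads of the parent gene can be shared with it. OR2I1P is annotated as an olfactory receptor copy in the MHC region and was at 0, 0.0598 and 0 TPM in Untreated and 38.3, 39.6 and 42.4 TPM at D28 (5.33). The 10 largest falls were TMEM61, ITGB1P1, ADAMTS7, TTYH1, PRTN3, TMPRSS5, TF, LRRC10B, CLSTN2 and TKTL1. TF, transferrin, was at 142, 141 and 132 TPM in Untreated, 26.4, 37.1 and 31.9 TPM at D28 and 219, 223 and 214 TPM in D28WO (-2.76 ± 0.158 (SE), adjusted p = 7.6e-08 for D28 minus D28WO, limma). Its D28WO libraries lay above all libraries of the other groups. TTYH1 was at 34.7, 34.4 and 30.6 TPM and ADAMTS7 at 42.3, 46.6 and 41.9 TPM in D28WO, between the libraries of D28 and those of Untreated.

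**Figure D5:**
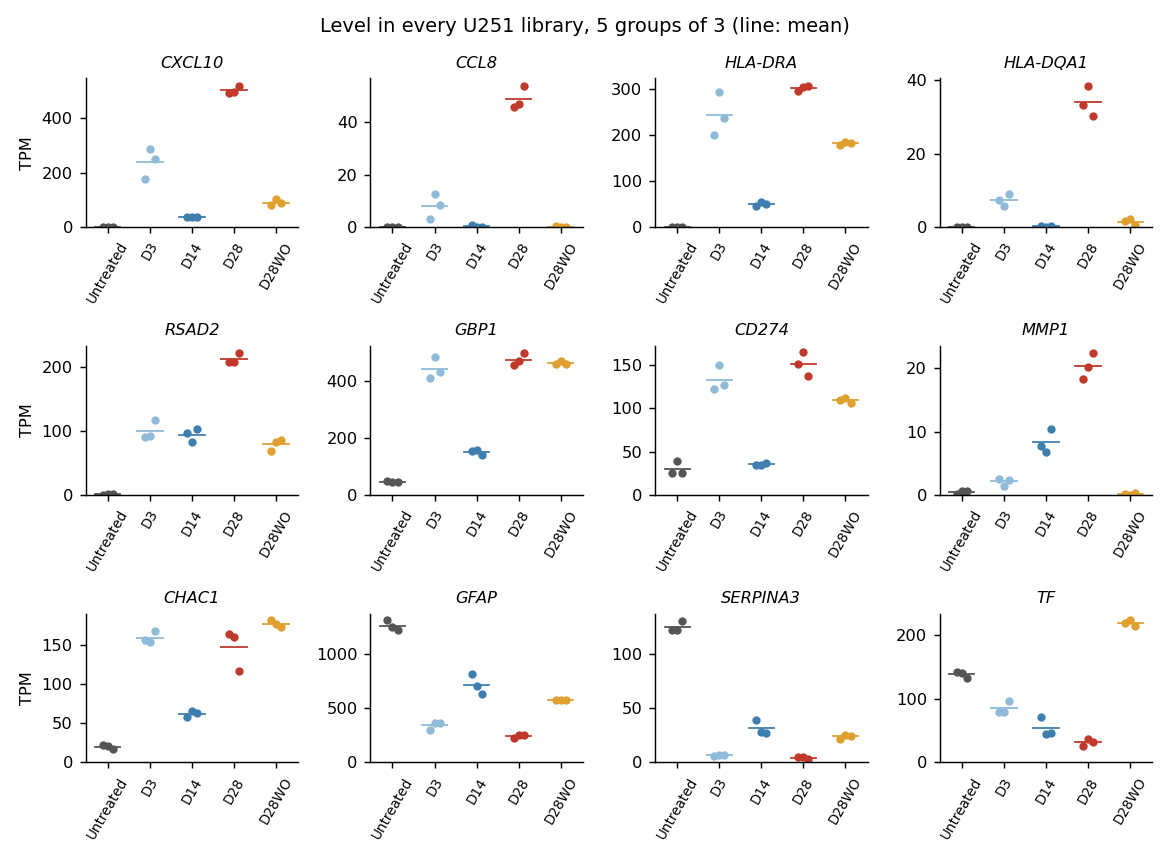
Level in TPM (vertical axes, from 0) of 12 genes in each of the 15 U251 libraries, by group on the horizontal axes, with points for libraries and lines for means. In CXCL10, CCL8, HLA-DQA1, RSAD2 and MMP1 the D28 libraries are above all others, GBP1 and CHAC1 passed the threshold against Untreated and D14 and not against D3 or D28WO, GFAP and SERPINA3 have their lowest means at D28, and TF is lowest at D28 and highest in D28WO.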

How the data were processed

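RNA of the U251 line was sequenced in 15 libraries, from TruSeq paired-end reads per the labels. The authors deposited TPM values in 1 table per line. The submitters' processing notes name FastQC, Trim Galore, STAR, featureCounts and edgeR with GRCh38. How TPM was computed and the annotation are not given in the sources used here, and TPM keeps no depth. The 15 columns of the U87 table were not used. Counts were not used here, so limma on log2(TPM + 1) takes the place of the authors' limma-voom.

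All 15 U251 libraries entered 1 fit of 5 groups (lmFit, eBayes with trend, limma 3.58.1, R 4.3.3), for genes averaging 0.5 TPM or more in the D28 and Untreated libraries, and Benjamini-Hochberg adjustment over all genes of a contrast. D28 was contrasted with Untreated, D3, D14 and D28WO. These contrasts share the D28 libraries and 1 estimate of the spread. Summed levels were compared with exact permutation tests (scipy 1.17.1). The procedure was tested on simulated data. Cell cycle lists are those of Seurat 5.3.0, and the list of core IFN-γ signalling follows the study. The text of the study names the interferon damage signature without listing its members. The other lists were written by hand, and those of chemokines and feedback regulators are longer than the groups named in the study. The members and lists were chosen with earlier results of these data known. Genes named in the text are members of a list, the 15 largest rises and falls against Untreated and the 10 against D28WO among named genes with at least 5 TPM in the higher group and groups that do not overlap, and the 10 most abundant risen and fallen genes. Some of these genes are not reported here. Coordinates are those of GRCh38 (GENCODE release 44, which matched 18287 genes tested). Promoter windows come from RefSeq. Tables and figures were made with Python 3.11.15, numpy 2.4.6, pandas 2.3.3 and matplotlib 3.10.9.

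The counts of called genes and the values of genes named by rule were recomputed with median-ratio size factors or quantile normalization, with the filter at 1 TPM or removed, with a pseudocount of 0.1, with array weights, with a block for the replicate number, with only the compared groups fitted, by the adjusted p alone, and without each library in turn. The summed level of silent genes was recomputed with a second gene set only.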

Additional observations from a re-analysis of the deposited data

Results flagged for a closer look

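Of the 30 genes with the largest changes against Untreated, 18 also differed between D28 and D28WO in a direct limma contrast of these groups (Benjamini-Hochberg adjusted p under 0.05 and a log2 difference over 1 in size). Over all genes 8.5% were higher and 1.06% lower at D28 than in D28WO, and the 30 genes were chosen on the same D28 libraries, so their number is a description. CXCL11 and CXCL9, of these 30 the chemokines furthest from D28WO, were 3.79 and 3.46 higher at D28 on the log2 scale, and CXCL10 was 2.49 higher. UBD was higher by 2.66 and RSAD2 by 1.42. In the class II pathway HLA-DQB1 was higher by 1.67, HLA-DOA by 1.33 and HLA-DRB1 by 1.06.

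The other 10 were lower at D28 than in D28WO. Among them the differences were -3.56 for TMEM61, -3.48 for ITGB1P1, -3.28 for ADAMTS7 and -3.22 for TTYH1. They were -2.82 for TMPRSS5, -2.27 for SERPINA3 and -1.98 for PRSS33, and -2.06 for each of PADI2 and SCUBE3. In all 10 genes the D28WO mean lay between those of D28 and Untreated. Groups of 3 libraries are too small for a check on single outlying libraries.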

How the results depend on the processing

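No gene named by rule changed direction under the alternatives run, but medians of some lists did. With quantile normalization the median over all genes was -0.03, over feedback regulators -0.05, over p53 targets -0.07, over S phase genes -0.02 and over WNT, Notch and Hedgehog genes -0.17. It was -0.17 over olfactory receptors in place of 0.38, and -0.21 over macrophage markers in place of 0.26. With median-ratio size factors the medians of p53 targets, S phase genes and WNT, Notch and Hedgehog genes were -0.01, -0.05 and -0.05 and that of the licensing list -0.01, and all of these medians were above 0 as reported. The summed level of the second set of silent genes differed by 23.7 TPM, against 25.8 TPM for olfactory receptors. Of the 151 alternative values of the counts and of this sum, 132 stayed within 1.5 times the value reported. Quantile normalization gave 1594 risen and 1532 fallen genes against Untreated, 461 and 204 against D3, 586 lower against D14, and 980 higher and 667 lower against D28WO. With only the compared groups in the fit, 441 genes were higher and 39 lower than at D3. The adjusted p as the only criterion gave 6333 risen and 3524 fallen genes against Untreated, 2181 and 1334 against D3, 2797 and 2219 against D14, and 4631 and 2442 against D28WO. Over the 1128 genes of 50 gene lists, of which 247 rose and 66 fell, it gave 444 and 341. Without 1 library at a time these lists gave 235 to 246 risen and 64 to 68 fallen genes, and all genes gave 509 to 642 higher and 55 to 92 lower against D3, 863 to 1093 and 302 to 344 against D14, and 1765 to 1957 and 223 to 270 against D28WO. Except for the use of fewer samples or the lack of a limit on size, the cause of these shifts was not tested. Among the genes named by rule, 9 alternative values lost a call. They concern HLA-E, TMSB4X, ENO1, ACTG1, MYO1E and CAPS, and CAPS was also at -0.96 to -0.98 without D28 replicate 1 or 2 or Untreated replicate 3.

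The replicate numbers are shared by the groups in the labels, which do not say that they mark a shared culture. The deviations of same-numbered D28 and Untreated libraries from their group means correlated at -0.0351, 0.00782 and 0.0243, so the numbers were not taken to pair the libraries. With the replicate block 2901 genes rose and 811 fell against Untreated, 666 and 74 were called against D3, 1040 and 351 against D14 and 1985 and 254 against D28WO, and 248 and 66 over the lists.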

Other observations

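Several further gene groups of the D28 libraries were measured. Of 30 WNT, Notch and Hedgehog genes 3 rose and 2 fell against Untreated (2 and 4 with quantile normalization), where 12.3% of all genes rose and 3.42% fell. The WNT antagonist SFRP4 was at 31.6, 27.7 and 25.4 TPM in Untreated and 5.79, 7.35 and 3.15 TPM at D28 (-2.24 ± 0.334 (SE), adjusted p = 0.00011 with limma and Benjamini-Hochberg adjustment), and the receptor gene FZD8 went from 36 to 8.92 TPM (-1.90). The Notch targets HEY1 (55.4 to 118 TPM, 1.08) and HEY2 (1.56) and the ligand DLL1 (1.49) were those that rose. Of 17 lysosomal proteases 2 rose and 1 fell, against the same 12.3% and 3.42% over all genes. CTSC, which activates granule proteases, went from 181, 197 and 202 to 533, 530 and 545 TPM (1.47) and CTSH fell from 170 to 76 TPM (-1.15), the other risen gene being CTSS. Of 12 PARP and DTX family genes PARP10 and PARP12 rose (1.27 and 1.92), against the same 12.3% over all genes.

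Of 16 cyclins, CDK inhibitors and E2F factors of the G1 phase only CCND2 rose against Untreated, from 0.0703, 0 and 0 to 4.29, 3.78 and 2.45 TPM (2.12). Against D28WO 6 of them were higher at D28 and 1 was lower, with CCNE2 at 30.7, 32.4 and 49.7 TPM at D28 and 5.57, 10.4 and 7.26 TPM in D28WO (2.15 ± 0.225 (SE), adjusted p = 1.1e-05 with limma). None of 24 MYC-responsive nucleolar genes (median 0.27), of 79 nuclear genes of the respiratory chain (median -0.14) or of 12 mitochondrially encoded genes (median -0.41) passed the threshold of limma against Untreated. By the adjusted p alone 13 nucleolar genes were higher and 2 lower, 1 and 26 of the respiratory chain, and 0 and 4 of the mitochondrially encoded ones. Among markers of neurons SLC17A7 alone of 6 tested rose (0.565 to 3.19 TPM), a call lost with quantile normalization.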
